A study of Caenorhabditis elegans with 4 samples.

Results

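LIN-35 peaks that lay close together on the genome of Caenorhabditis elegans formed 285 clusters, which held 1057 of the 5374 peaks in the combined list of a chromatin immunoprecipitation and sequencing (ChIP-seq) experiment. The clusters were defined by position: peaks were sorted by chromosome and start, neighbours with at most 2000 bp between them were chained, and chains of 3 or more peaks were kept. The other 4317 peaks, called unclustered here, were 1092 peaks in pairs and 3225 peaks with no neighbour within 2000 bp. Clustered peaks made up 19.7% of the list (Wilson 95% interval 18.6 to 20.8) and 27.03% of the bases under peaks.

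LIN-35 is the only Rb family protein of the worm. It does not recognise DNA sequences by itself and reaches chromatin through partners, among them E2F-DP and the other subunits of the DREAM complex, which represses transcription and binds mainly near the starts of genes. Loss of lin-35 in the worm leads to expression of germline genes in somatic cells.

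The material was young adult hermaphrodites of strain YL468, grown at 20 degrees Celsius and fixed with 2% formaldehyde. They carried the unc-119 mutation ed3 on chromosome III and the insertion vrIs93, which expresses LIN-35 fused to GFP and FLAG from the mex-5 promoter, active in the germline, beside an unc-119 rescue gene. Both ChIP samples came from this strain. They were precipitated with antibodies against GFP and are numbered replicates 1 and 2; 2 input samples of the same strain are labelled as well, and no input file was analysed here. The labels name no lin-35 mutation, so untagged LIN-35 from the native gene may be present, and they do not say whether the replicates were separate cultures. Tissues were not separated. The insertion also adds copies of mex-5, lin-35 and unc-119 sequence, and peaks at those native genes could contain reads from it. Such peaks were not looked for.

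Replicate 1 had 3804 peaks and replicate 2 had 558, and read depth is not given in the sources used here. For every peak the lists state its position on the WormBase WS220 build and its q-value. Ranks run from 1, the lowest q of a list. The clusters were chosen by the positions of the combined peaks, widths and q-values come from the same peak calls, and the combined list covers the same samples as the replicate lists. None of these measures is independent of the choice, so the values are descriptions without a test. Intervals of shares are Wilson 95% intervals, cover counting error only, and are too narrow where peaks of 1 cluster share a region. Genes and sequences under the clusters were not analysed, since no annotation of the WS220 build was used.

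Most clusters were small. Of the 285, 171 (60%) had 3 peaks, 69 had 4, 24 had 5 and 21 had 6 or more, up to 11. Their spans ran from 840 to 10630 bp with a median of 3109 bp, and 38 clusters spanned 5000 bp or more. Together the spans covered 967 kb, which was 0.966% of the summed chromosome lengths. Within a span most bases lay between peaks: the members covered a median of 29.0% of it, from 6.23% to 77.0%.

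**Figure D1:**
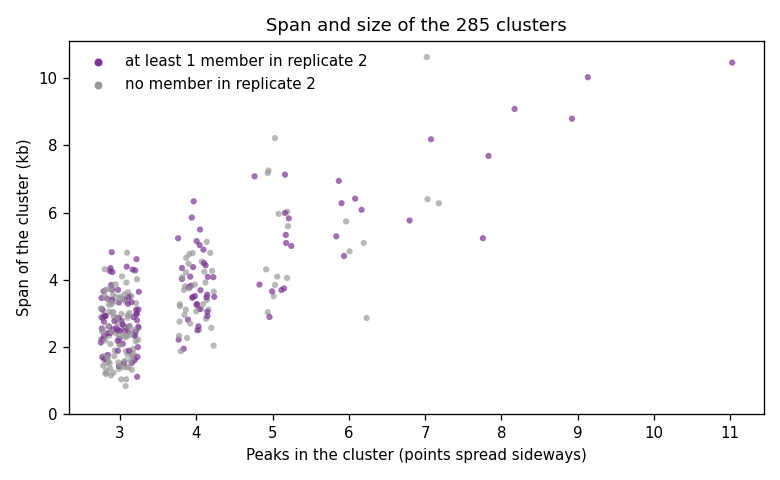
Span in kb (vertical axis) against the number of peaks (horizontal axis, points spread sideways) for each of the 285 clusters, coloured by whether at least 1 member overlapped a replicate 2 peak. Clusters of 3 peaks lie between 840 and 4823 bp, and 10630 bp is the longest span.

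The 772 gaps between neighbouring members had a median of 747 bp and a lower and upper quartile of 434 and 1246 bp. The shortest was 200 bp, which is also the shortest gap in the whole combined list. Gaps of up to 500 bp made up 31.2% and gaps over 1500 bp 16.6%. In the whole list, the gaps just inside the limit were 1997 bp on chromosome II and 1998 and 1999 bp on chromosome I. The gap of 1998 bp lay in a pair and the others in clusters. Those just outside were 2004 bp on chromosome IV, 2015 bp on chromosome II and 2022 bp on chromosome IV. Each of these 3 outer gaps separated a pair from a peak with no neighbour, and a limit of 2022 bp would have made each a cluster of 3.

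The cluster with most peaks lay on chromosome II at 10541921 to 10552384, with 11 peaks over 10464 bp. Its members did not form a gradient. The first peak ranked 244 (q = 3.62e-13, 410 bp wide) and was the only one that overlapped a replicate 2 peak, where it ranked 69. The fifth ranked 388 and was the widest at 722 bp, while the eighth ranked 5259 and the ninth, which was 5 bp wide, ranked 4969. In replicate 1, 8 of the 11 members were found. Strong and very weak calls thus alternated within the same 10 kb.

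The next 2 clusters by size had 9 peaks each. On chromosome III at 1616203 to 1626232, the members at 1616560, 1618897 and 1625636 ranked 189, 48 and 176, and all 3 overlapped peaks in both replicates. The other 6 members ranked from 1488 to 4683, none of them was found in replicate 2, and 3 were found in replicate 1. On chromosome II at 11971560 to 11980355, 2 wide members of 906 and 1130 bp ranked 118 and 131 and were found in both replicates. A member of 636 bp at 11979720 ranked 193 and was found in replicate 1 only. A member between the wide peaks, at 11975666 to 11975944, ranked 1082 and was found in replicate 2 only, where it ranked 303. In both clusters the wide, strong members were separated by narrow ones that the replicates marked less evenly.

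The 3 clusters of 8 peaks had the same mixed makeup. On chromosome III at 12607257 to 12616342, members ranked 286 and 333 were in both replicates and 4 of the other 6 were in neither. On chromosome V at 1151283 to 1158970, 5 of 8 members were in replicate 1 and only the first, ranked 169, was in replicate 2. On chromosome III at 9051027 to 9056266 the best member ranked 556 and 4 of the 8 were in neither replicate. In that cluster 1 replicate 1 peak, ranked 1117, reached over 2 members of 74 and 10 bp that are 280 bp apart.

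**Figure D2:**
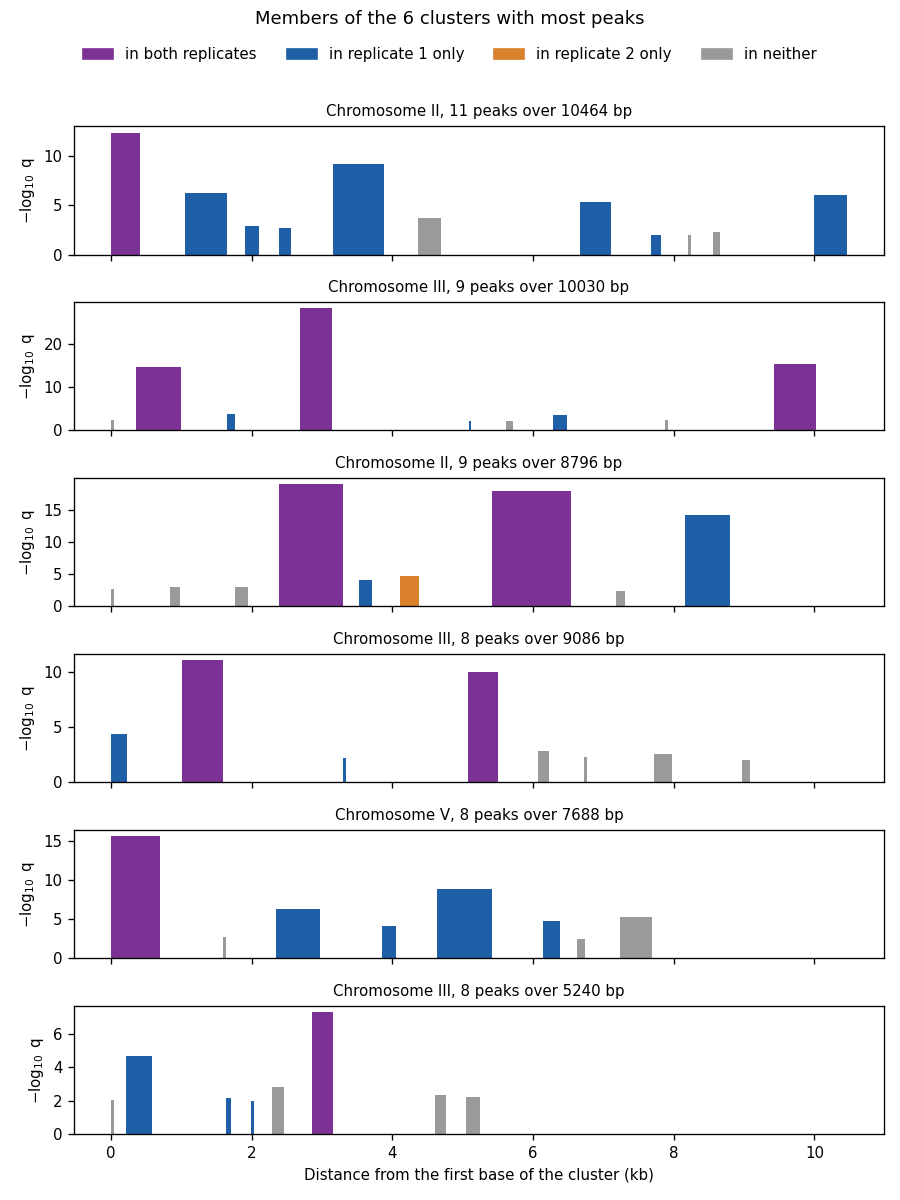
Members of the 6 clusters with most peaks, drawn by distance in kb from the first base of the cluster, with −log10 of the combined q as height and the replicate lists that held an overlapping peak as colour. Members under 40 bp are drawn 40 bp wide, and each panel has its own vertical scale; high bars found in both replicates stand beside low bars found in neither.

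Such a merged call was rare. Of the 643 replicate 1 peaks that overlapped members, 7 reached over at least 2 members, and of 188 such replicate 2 peaks 1 did. Conversely, 13 members overlapped 2 or more replicate 1 peaks and 3 overlapped 2 or more replicate 2 peaks. Neighbouring members that were both called in a replicate were not counted, so how often the replicates kept neighbours apart is not known. In replicate 2, 85 clusters had exactly 1 member found and 44 had more. Inside the cluster spans, 12 replicate 1 peaks and 1 replicate 2 peak lay only in the gaps.

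The 6 longest clusters included 4 of those with most peaks. The longest of all lay near the left end of chromosome V at 18896 to 29525 and had 7 peaks over 10630 bp. Its best member ranked 652 (q = 3.02e-07) and was 1772 bp wide. It covered the most bases of any cluster, 4591, yet no member was found in replicate 2, and 5 of 7 were in replicate 1. The remaining long cluster, on chromosome I at 5371845 to 5380062, had 5 peaks, of which the first was 1665 bp wide and ranked 185. On its chromosome it tied for most peaks with the cluster at 7656340 to 7662367, which had the shorter span, 6028 bp. It had 4 members in replicate 1 and 0 in replicate 2. The largest cluster of the X chromosome, at 3110741 to 3117020, had 7 peaks, all weak: the best ranked 1472 (q = 0.000182), 4 were in replicate 1 and 0 in replicate 2.

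The strongest clusters were not the largest. Of the 10 lowest q-values in the list, 5 belonged to cluster members, and 15 clusters had a member among the 50 best peaks. The lowest q of any cluster, 1.60e-112, was that of a peak of 1346 bp on chromosome III at 3866456 to 3867801. Its cluster, at 3862928 to 3869872, held 6 peaks. The peak after it, 503 bp away and 1568 bp wide, ranked 29, and the first member ranked 192. These 3 were in both replicates, where the best ranked 2 and 1, while the 3 peaks between the first and the best member ranked 1500, 4880 and 2828 and were found in replicate 1 only. All 6 members were in replicate 1, and those missing from replicate 2 were 95 bp wide or less.

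Of the other 5 clusters named for their lowest q, 4 had 1 member far ahead of the rest. On chromosome III at 7852701 to 7855809, the middle member ranked 4 in all 3 lists and the others ranked 622 and 5194. On chromosome V at 10894682 to 10897604 the last of 4 members ranked 7 in all 3 lists and the next best ranked 868. On chromosome III at 13461843 to 13466456, a peak of 2438 bp ranked 9, with neighbours ranked 748 and 3644. On the X chromosome at 11093775 to 11096446, the first member ranked 14, and the others ranked 2967 and, for a call of 2 bp, 4994. The fifth was the cluster of 6 on chromosome IV at 17277121 to 17283400. On its chromosome it tied for most peaks with the cluster at 385397 to 390691, which had the shorter span, 5295 bp. Its best peak, 2040 bp wide, ranked 8 and its second best ranked 110, and both were found in both replicates. Another member ranked 2526, was missing from replicate 1 and ranked 247 in replicate 2.

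This unevenness held across the clusters. The best member had a median rank of 642 (quartiles 233 and 1281), the second best a median rank of 1680 and the worst a median rank of 4018. In 141 of the 285 clusters the worst member lay in the last 25% of the list, and in 55 all members lay in the better 50%. A q under 1e-05 was reached by 295 members or 27.9%, against 18.3% of all combined peaks. No such member was present in 103 clusters, 1 was present in 94, and 2 or more in 88. The ranks of neighbouring members were almost unrelated (Spearman's rho = 0.04 over 772 pairs, across peaks, which are not independent), as were those of neighbours more than 2000 bp apart (rho = 0.04, 4050 pairs).

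In 6 clusters every member reached a q under 1e-05; they were picked out after their values were seen. The strongest lay on chromosome III at 10904086 to 10908908, with 3 peaks ranked 24, 120 and 229 that were 1506, 809 and 474 bp wide. The first and second were in both replicates and the third was in replicate 1. On chromosome IV at 15471449 to 15474058, the 3 members ranked 177, 235 and 434, all were in replicate 1, and only the first was in replicate 2. The other 4 lay on chromosome II at 5055207, chromosome IV at 6321748, and chromosome V at 1868607 and 10965510, each with 3 peaks and spans of 2442 to 4391 bp.

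Within a cluster the best member was usually the widest, in 214 of 285 clusters or 75.1%. Best members had a median width of 378 bp and the other 772 members one of 165 bp. The best member had no fixed place. In clusters of 3 it was the first in 65, the middle in 54 and the last in 52, and in the 114 larger clusters it stood at an end in 57 and inside in 57. Best members were picked by q, so their lead in rank and width follows in part from that choice.

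Clustered peaks ranked better than unclustered ones. The median rank was 2020 for clustered and 2846 for unclustered peaks, and 2312 for pairs and 3023 for peaks with no neighbour. The best 10% of the list held 16.4% of clustered peaks, 12.2% of peaks in pairs and 7.16% of peaks with no neighbour. Of the 50 best peaks, 16 or 32% (20.8 to 45.8) were clustered, and of the 500 best 32.2% (28.3 to 36.4). The very best peak of the list had no neighbour within 2000 bp.

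**Figure D3:**
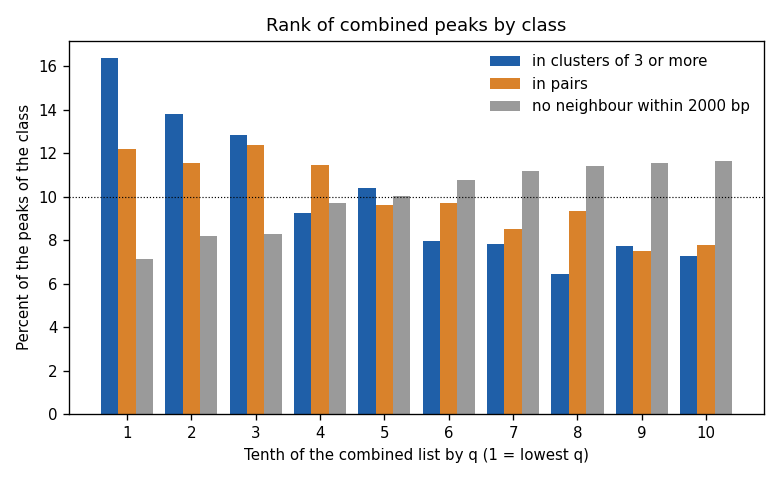
Percent of the peaks of each class (vertical axis) in each 10% step of the combined list by q (horizontal axis, 1 is the lowest q), for clustered peaks, pairs and peaks with no neighbour within 2000 bp; the dotted line is 10%. Clustered peaks lean to the low-q steps, with 16.4% in the first, and peaks with no neighbour to the others, with 11.7% in the last.

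Clustered peaks were also wider. The median width was 197 bp for clustered peaks (quartiles 104 and 355) and 140 bp for unclustered peaks (51 and 239). Calls under 100 bp made up 23.7% of clustered peaks (21.3 to 26.4) and 38.9% of unclustered peaks (37.4 to 40.4), with 35.9% in the whole list. Clusters still held 40 calls of under 10 bp. A wide peak shortens the gap to its neighbours, so width enters the rule. With midpoints within 2000 bp, which does not use the width, the difference in medians was 49 bp, against 57 bp as chained here.

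Counted by at least 1 overlapping member, nearly every cluster was marked in replicate 1 and fewer than 1 in 2 in replicate 2. With 3 or more members, a cluster reaches this count more easily than 1 peak does. Of all combined peaks, 56.9% overlapped a replicate 1 peak and 10.1% a replicate 2 peak. At least 1 member overlapped a replicate 1 peak in 277 clusters or 97.2% (94.6 to 98.6), and all members did in 47. At least 1 member overlapped a replicate 2 peak in 129 clusters or 45.3% (39.6 to 51.1), and all did in 2. In no cluster were all members found in both replicates, and in 7 clusters no member was found in either. Larger clusters were more often marked in replicate 2: 40.4% (33.3 to 47.8) of those with 3 peaks, 49.3% (37.8 to 60.8) of those with 4, and 66.7% (45.4 to 82.8) of the 21 with 6 or more. The share of members found in replicate 2 was much the same at these sizes, at 17.3%, 17.0% and 19.6%.

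Counted by peak, replicate 2 separated the classes more than replicate 1 did. In replicate 2, 186 clustered peaks or 17.6% (15.4 to 20.0) had an overlapping peak and 356 unclustered peaks or 8.25% (7.46 to 9.10), where 10.1% of all combined peaks did. In replicate 1 the shares were 60.3% (57.3 to 63.2) of clustered and 56.1% (54.6 to 57.6) of unclustered peaks, where 56.9% of all did. Both replicates held 15.2% (13.2 to 17.5) of clustered and 7.04% (6.32 to 7.84) of unclustered peaks, where 8.65% of all were in both. The replicate 1 difference of 4.18 percentage points (0.858 to 7.45) differed in sign between settings. With only q under 0.001 it was -1.52 (-6.89 to 2.86), and with only peaks of at least 100 bp it was -2.24 (-6.50 to 1.82). With at least 4 peaks per cluster it was 2.55 (-1.86 to 6.83), and with midpoint distances 2.67 (-0.897 to 6.16), so all 4 of these intervals included 0.

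The difference in rank moved with these shares, so peaks were also compared within steps of the list. In the 25% of the list with the lowest q, replicate 2 held 45.3% (40.4 to 50.3) of 386 clustered peaks and 33.9% (31.0 to 37.0) of 958 unclustered peaks. Replicate 1 held 92.2% (89.1 to 94.5) of the clustered and 94.99% (93.4 to 96.2) of the unclustered peaks of that step. In the second 25% replicate 1 held 60.6% (54.8 to 66.2) of clustered and 68.0% (65.2 to 70.7) of unclustered peaks, in the third 35.4% (29.0 to 42.2) and 45.1% (42.3 to 48.0), and in the last 21.9% (16.7 to 28.2) and 23.5% (21.1 to 26.0). Replicate 2 held few peaks of the later steps: 2.89% (1.47 to 5.59) of clustered and 2.44% (1.67 to 3.55) of unclustered peaks in the second, 1.52% (0.517 to 4.36) and 0.175% (0.0479 to 0.634) in the third, and 0% and 0.262% (0.0890 to 0.766) in the last. By the limit of 3 counts, the 0 of 196 clustered peaks in the last step allows a share of up to 1.53%. This limit lies above the unclustered share, so the last step gives no direction. The replicate 2 intervals overlapped in the last 3 steps.

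Within each step, clustered peaks were found in replicate 1 less often than unclustered ones, by 1.51 to 9.76 percentage points. The intervals overlapped in 3 of the 4 steps and were barely apart in the third, and the difference was not tested. In the best 5% of the list replicate 1 held 100% of both classes. In the fifth 5% step it held 71.2% (59.4 to 80.7) of clustered and 84.2% (78.6 to 88.6) of unclustered peaks, with overlapping intervals.

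Finer steps narrowed the replicate 2 difference. In the best 5% of the list replicate 2 held 87.1% (79.2 to 92.3) of 101 clustered and 84.5% (78.3 to 89.2) of 168 unclustered peaks, and in the next 5% it held 55.6% (44.1 to 66.5) and 44.7% (37.9 to 51.6). In the fourth 5% step the shares were 19.1% (11.5 to 30.0) and 12% (8.20 to 17.2). The clustered share was the higher in each of the 5 steps up to 25%, with intervals that overlapped in every one. Clustered peaks of the best 5% were wider, with a median of 725 bp against 542.5 bp for unclustered peaks, and the part of width in the overlap was not tested.

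**Figure D4:**
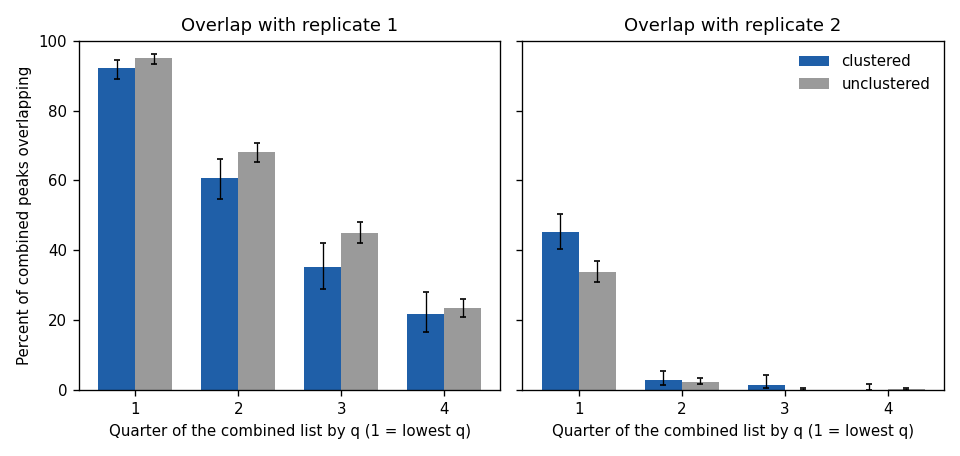
Percent of combined peaks that overlapped a replicate 1 peak (left) or a replicate 2 peak (right) in each 25% step of the combined list by q, for clustered and unclustered peaks; bars carry Wilson 95% intervals. In replicate 1 the clustered bar is the lower in every step, at 92.2% in the first, and in replicate 2 it is the higher in the first step, at 45.3%.

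Best members, picked by q, had an overlapping replicate peak more often than the other members. They overlapped a replicate 1 peak in 88.1% (83.8 to 91.3) and a replicate 2 peak in 42.1% (36.5 to 47.9). For the other members the shares were 50.0% (46.5 to 53.5) and 8.55% (6.78 to 10.7), and for all combined peaks 56.9% and 10.1%. Of the 85 clusters with exactly 1 member in replicate 2, that member was the best one in 77. No peak of either replicate overlapped 47.7% of the other members, where the same held for 41.7% of all combined peaks. More than 1 member was found in replicate 2 in 44 clusters and 3 members in 13.

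The 2 clusters with all members in replicate 2, picked out after their values were seen, had 3 peaks each. On chromosome V at 1868607 to 1872065 the members ranked 94, 384 and 515 in the combined list and 70, 110 and 480 in replicate 2. The middle one, 643 bp wide, had no overlapping replicate 1 peak although its neighbours ranked 95 and 708 there. On chromosome IV at 4388834 to 4390829 the middle member ranked 2203, was missing from replicate 1 and ranked 262 in replicate 2. In each of these clusters 1 replicate thus lacked a peak that the other held.

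The 4 unsupported clusters taken by size and q each had 3 peaks. The best lay on chromosome II at 3931921 to 3934326, with members ranked 1194, 4579 and 2098 and widths of 200, 52 and 101 bp. The others lay on chromosome IV at 16490308 to 16492624 and 16398358 to 16399899 and on chromosome II at 7705177 to 7708706, with best ranks of 1726, 2188 and 2156. The lowest q among all these members was 3.75e-05. They were weak calls of at most 382 bp in the combined list.

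When each replicate list was chained by itself with the same rule, it gave fewer clusters. Replicate 1 gave 123 clusters holding 421 peaks or 11.1% (10.1 to 12.1) of its list, and replicate 2 gave 13 clusters of 3 peaks each, 6.99% (5.15 to 9.41) of its list. Of the replicate 1 clusters 96 or 78.0% touched a combined cluster, and of the replicate 2 clusters 11 did. Put the other way, 33.7% of combined clusters touched a replicate 1 cluster and 3.86% a replicate 2 cluster. Of the replicate 2 peaks, 33.9% (30.1 to 37.9) lay in the spans of combined clusters, and of the replicate 1 peaks 17.2% (16.1 to 18.5) did. Among the 558 replicate 1 peaks with the lowest q, as many as replicate 2 has, the share was 31.4% (27.7 to 35.3).

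Clusters were spread over all 6 chromosomes at different densities. Chromosome III had 69 clusters or 5.01 per Mb, and 26.6% (24.0 to 29.4) of its peaks were clustered. Chromosomes II and V had 57 clusters each, at 3.74 and 2.73 per Mb, with 21.5% and 20.8% of their peaks clustered. Chromosome IV had 53, at 3.03 per Mb and 18.4%, and chromosome I had 28, at 1.86 per Mb and 16.0% (13.3 to 19.2). The lists were used as given, and peaks of chromosome I not analysed here could change its values. The X chromosome had 21, at 1.19 per Mb, and 10.5% (8.50 to 13.0) of its peaks were clustered. Peaks as such were densest on chromosome III, at 75.3 per Mb, and sparse on X and I, at 41.6 and 38.6 per Mb. Closely packed peaks form chains more readily, and the part of density in these differences was not tested.

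The X chromosome held 7.37% (4.87 to 11.001) of clusters and 15.2% (14.1 to 16.3) of unclustered peaks, with 17.6% of the length. The best member of X clusters had a median rank of 1229, against 594.5 on the autosomes. Unclustered X peaks ranked lower in the order too, with a median of 3463 against 2741.5 on the autosomes. The best members of 3 X clusters ranked 14, 25 and 75. At least 1 member was found in replicate 2 in 4 of 21 X clusters and in 125 of 264 autosomal ones. When only peaks with q under 0.001 were chained, 1 of 71 clusters lay on X. The share of X among the peaks under that limit was not counted, so this count has no background here.

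The shares found in replicate 2 were also set side by side for each chromosome. On chromosome IV, replicate 2 held 23.7% (18.1 to 30.3) of clustered and 8.47% (6.76 to 10.6) of unclustered peaks. On chromosome III it held 22.5% (17.9 to 27.7) and 8.14% (6.40 to 10.3), and on chromosome V 18.1% (13.5 to 23.9) and 8.63% (6.87 to 10.8). On chromosome II the shares were 13.5% (9.56 to 18.7) and 10.1% (8.14 to 12.4), on chromosome I 9.68% (5.18 to 17.4) and 8.20% (6.08 to 10.97), and on X 5.19% (2.04 to 12.6) and 5.50% (3.996 to 7.52). The intervals of clustered and unclustered peaks were apart on chromosomes III, IV and V and overlapped on I, II and X. These shares were not matched for rank. Median ranks of clustered and unclustered peaks were 1707 and 2431 on III, 1990.5 and 2896.5 on IV, and 2111.5 and 3055.5 on V. They were 1818 and 2580.5 on I, 2148 and 2630.5 on II, and 2853 and 3463 on X. Whether the chromosomes differ in this was not tested.

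Along the autosomes, 163 of 264 clusters or 61.7% (55.8 to 67.4) lay in the central 50% of the length, as did 55.5% (53.8 to 57.1) of unclustered peaks. These intervals overlapped. On single autosomes the central share of clusters ran from 57.1% on chromosome I to 66.7% on chromosome V. The share of unclustered peaks ran from 50.0% to 61.1% on the same 2 chromosomes. The replicate lists chained by themselves gave 51.3% (42.2 to 60.3) of 113 autosomal clusters in replicate 1 and 61.5% (35.5 to 82.3) of 13 in replicate 2. The central share of the other peaks in those lists was not counted. On the X chromosome 9 of 21 clusters or 42.9% (24.5 to 63.5) were central, 9 were in the left 25% and 3 in the right. Of its 655 unclustered peaks, 327 or 49.9% (46.1 to 53.7) were central, 151 were left and 177 right. The arms were uneven on chromosomes II, III and V too, but not on every autosome. Chromosome II had 5 clusters in its left 25% and 16 in its right, with 121 and 223 unclustered peaks. Chromosome III had 6 and 21 clusters, with 139 and 196 unclustered peaks, and chromosome V had 14 and 5 clusters, with 164 and 147 unclustered peaks. Chromosome IV had 11 and 11 clusters, with 182 and 215 unclustered peaks. Chromosome I had 7 and 5 clusters, with 137 and 107 unclustered peaks.

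**Figure D5:**
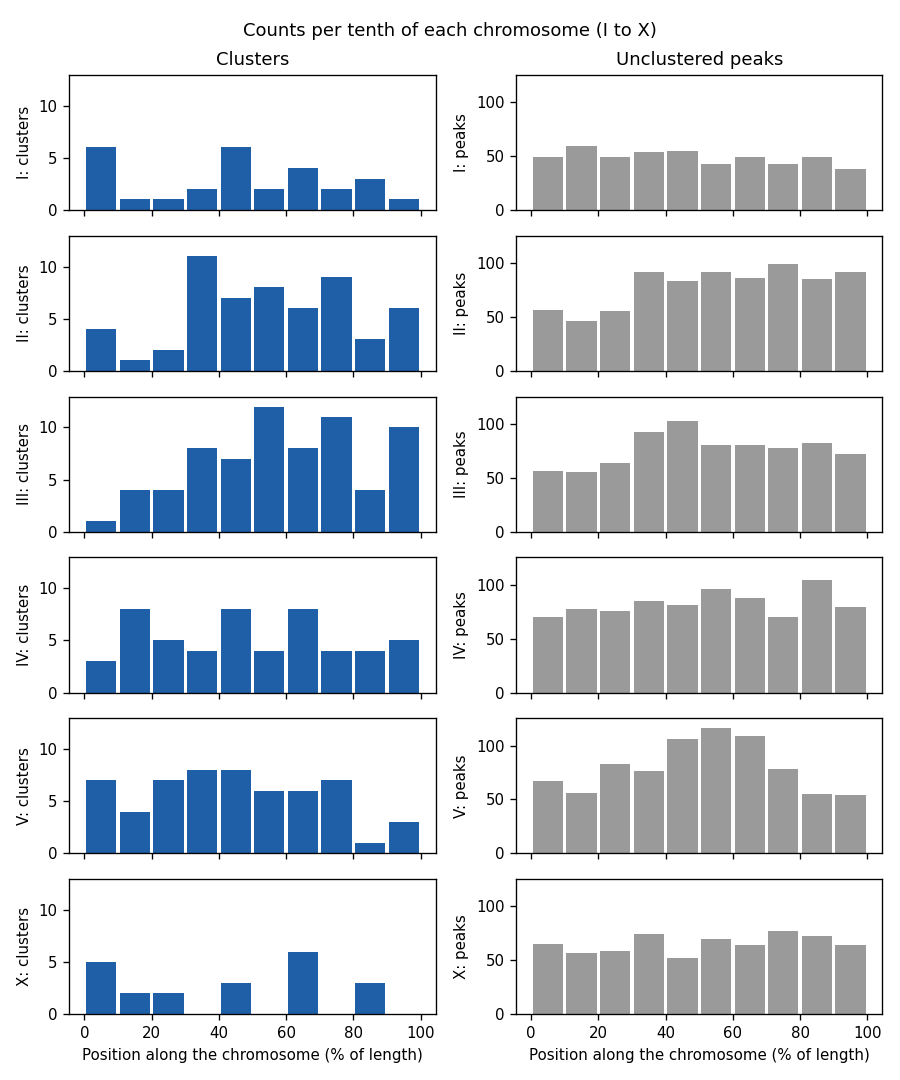
Number of clusters (left) and of unclustered peaks (right) in each 10% step along the 6 chromosomes, with the horizontal axis in percent of the chromosome's length and 1 row per chromosome. Chromosome III has the most clusters, 69, X the fewest, 21, and the right part of chromosome V few clusters.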

How the data were processed

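Whole young adult worms were subjected to ChIP-seq against GFP-tagged LIN-35. Per the file headers, coordinates are on WormBase WS220 and peaks were called with PeakSeq. The q-values are as deposited by the authors and lie below 0.01. Comment lines name 2 peaks per list whose structure a liftover changed, and neither of those in the combined list was in a cluster. The aligner, the control, the depth and the making of the combined list were not given in the sources used here. Chains of at least 3 peaks with gaps of at most 2000 bp were built with Python 3.11.15 and pandas 2.3.3. Overlap meant at least 1 bp. Chromosome lengths were the highest peak end in any list, and a cluster's position was its midpoint. Chaining was tested on simulated data. On the real lists, chaining and overlap were checked against bedtools 2.31.1, with equal counts. Members and measures were chosen with earlier results of these data known.

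Clusters were named by rule: the 6 with most peaks, the 6 longest, the 6 with the lowest q, the 6 largest with every member in both replicates (there were none), the 4 largest with no member in either, and the largest of each chromosome. Alternatives were gap limits of 1000 and 5000 bp, at least 4 peaks, q under 0.001, peaks of at least 100 bp, midpoint distances, 50% reciprocal overlap, pairs left out of the unclustered peaks, and each replicate list alone.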

Additional observations from a re-analysis of the deposited data

How the results depend on the processing

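Clusters numbered 285 and held 19.7% of peaks. With gaps of 1000 bp there were 151 (9.68%), with 5000 bp 496 (38.3%), with at least 4 peaks 114 (10.1%), with q under 0.001 71 (10.9%), and with peaks of at least 100 bp 165 (16.9%). Midpoint distances gave 16.6% of peaks. Leaving out 1 replicate gave 13 to 123 clusters and 6.99% to 11.1%. Clustered peaks had the wider median and the better rank under each alternative that gives these values (reciprocal overlap does not), though for the replicate 2 list the intervals of both differences included 0 (-8.80 to 149 bp and -30.3 to 23.6 points). The width difference of 57 bp was 44 bp with q under 0.001, 66.5 bp with peaks of at least 100 bp, 67 bp without pairs and 39 bp in either replicate list alone. The difference in rank percentile, -15.4 points (negative is better for clustered peaks), was -9.26 with peaks of at least 100 bp, -18.7 without pairs and -18.0 to -3.23 in a replicate list alone. The replicate 2 difference of 9.35 percentage points was 6.87 with 5000 bp, 13.4 with q under 0.001, 6.67 with reciprocal overlap and 12.8 for the replicate 1 list. The replicate 1 difference of 4.18 points reversed to -1.52 with q under 0.001 and to -2.24 with peaks of at least 100 bp. For the replicate 2 list, which has 39 clustered peaks, this difference was -17.3, with an interval below 0 (-33.3 to -4.19). The cause of these reversals was not tested. The central share of clusters was 51.3% to 61.5% in the replicate lists. The X share of clusters, 7.37%, was 1.41% with q under 0.001 and 0% to 8.13% in the replicate lists, where 0 of 13 has a Wilson upper limit of 22.8%. The X share of all peaks under these settings was not counted. No paired analysis was possible because only ChIP peak lists were used and the numbered inputs have none here. Depth is unknown, so absence of a member from a replicate list is absence of a call and not of binding.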

Other observations

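Clusters themselves were unevenly spaced. Over 279 neighbouring pairs on the same chromosome, the median distance from 1 cluster to the next was 181 kb (quartiles 66.7 and 390 kb), and the longest was 3870 kb. In 20 pairs it was under 10 kb. The closest, 2164 bp, followed the cluster on chromosome IV at 12029917 to 12031795, and the cluster of 8 on chromosome III at 9051027 to 9056266 was followed by another after 2648 bp.

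Of the 285 clusters, 8 or 2.81% lay within 200 kb of the first base or the highest peak end of their chromosome, as did 2.32% of unclustered peaks. On chromosome V, 2 clusters lay within the first 30 kb: 1 of 5 peaks at 4776 to 10603, whose best member ranked 148, and the longest cluster of all. On chromosome I, a cluster of 3 at 15151 to 17283 had a best member ranked 79. These were chosen after their values were seen.

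Of the 123 clusters of the replicate 1 list, 27 touched no cluster of the combined list. The largest of these had 4 peaks each, on chromosome II at 11345481 to 11349981, where the combined list had 3 peaks not chained into a cluster, and on chromosome V at 14685557 to 14688882, where it had 2. The place on chromosome V also held 1 of the 2 replicate 2 clusters outside the combined ones, at 14685651 to 14688770. The other, on chromosome III at 3502603 to 3505510, likewise overlapped 1 of these 27, of 3 peaks at 3502629 to 3505714.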
